A study of Mus musculus with 30 samples.

Results

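The metallothioneins Mt1, Mt2 and Mt3 were followed through 15 RNA samples of mouse neurospheres, the free-floating balls that neural precursors form as they divide in culture. The 3 genes were chosen by symbol, with earlier results of these samples known, as all probe sets that the platform tables name Mt1, Mt2 or Mt3, and they stand among 13882 genes tested. The 4 probe sets so named are all on the first of the 2 chips: 1422557_s_at and 1451612_at for Mt1, 1428942_at for Mt2 and 1420575_at for Mt3. Because the values that made the family stand out are the ones given here, the differences of its members between conditions are descriptions and carry no test.

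Neurospheres were started at embryonic day 14 and grown for 7 days in a serum-free medium (DMEM:F12 with N2 and 2% B27). The EGF samples (epidermal growth factor, n = 6) were taken from the ganglionic eminences, medial and lateral. The anterior entopeduncular area gave both the samples with PDGF-AA plus the neurotrophin NT-3 (n = 3) and those with PDGF-AA alone (n = 6). EGF and PDGF-AA samples therefore differ in brain region as well as in factor, and the 2 cannot be told apart. PDGF-AA was given at 100 ng/ml for the samples with PDGF-AA alone, and both factors at 100 ng/ul, a unit that could not be checked, for the samples with NT-3. In the labels of the EGF samples the text on growth gives PDGF-AA as the factor, whereas title, description and purification text give EGF, by which they were grouped here. No strain, genotype or transgene is named in the labels. Whether replicates are separate cultures is not said in the labels, and the p-values below cover only the spread between these samples.

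Metallothioneins are small proteins, rich in cysteine, that bind zinc and copper and so buffer these metals in the cell. Mt1 and Mt2 are known for their induction by zinc through the transcription factor Mtf1, which binds metal response elements in their promoters, and also by glucocorticoids, by cytokines that act through Stat3 and by oxidative stress. In brain, Mt1 and Mt2 are best known from astrocytes. Mt3, first described as a growth inhibitory factor of neurons, is the member most restricted to the nervous system.

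In RefSeq (GRCm38.p6) the family lies on chromosome 8 in a cluster of 43.1 kb, from 94137204 to 94180327, all genes on the plus strand. In order along the chromosome these are Mt4 (94137204 to 94139031), Mt3 (94152607 to 94154148), Mt2 (94172618 to 94173567) and Mt1 (94178883 to 94180327). The gap between Mt2 and Mt1 is 5315 bases, that between Mt3 and Mt2 18469 bases and that between Mt4 and Mt3 13575 bases. The promoters of the 3 members are shown because they hold unequal numbers of the motif through which zinc acts on the family. Each window runs from 250 bases before to 50 bases from the RefSeq start, and matches to the core of the metal response element are in capitals (TGCACNC or TGCGCNC on either strand; no 2 matches overlap). For Mt1 the start used is that of the transcript in the promoter table, at 94179089, inside the span of the gene.
Mt1, chr8:94178839-94179138, plus strand: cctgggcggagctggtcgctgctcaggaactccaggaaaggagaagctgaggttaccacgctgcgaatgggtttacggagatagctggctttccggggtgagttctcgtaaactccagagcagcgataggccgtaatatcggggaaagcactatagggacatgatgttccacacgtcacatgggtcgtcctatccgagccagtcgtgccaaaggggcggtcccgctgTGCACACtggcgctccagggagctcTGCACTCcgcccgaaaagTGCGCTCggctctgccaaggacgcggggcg
Mt2, chr8:94172368-94172667, plus strand: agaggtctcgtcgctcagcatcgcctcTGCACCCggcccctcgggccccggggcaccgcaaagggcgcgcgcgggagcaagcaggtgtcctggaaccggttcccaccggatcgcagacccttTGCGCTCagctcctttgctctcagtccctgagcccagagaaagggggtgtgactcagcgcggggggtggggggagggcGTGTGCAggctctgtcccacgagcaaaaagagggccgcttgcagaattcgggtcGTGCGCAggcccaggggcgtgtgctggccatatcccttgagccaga
Mt3, chr8:94152357-94152656, plus strand: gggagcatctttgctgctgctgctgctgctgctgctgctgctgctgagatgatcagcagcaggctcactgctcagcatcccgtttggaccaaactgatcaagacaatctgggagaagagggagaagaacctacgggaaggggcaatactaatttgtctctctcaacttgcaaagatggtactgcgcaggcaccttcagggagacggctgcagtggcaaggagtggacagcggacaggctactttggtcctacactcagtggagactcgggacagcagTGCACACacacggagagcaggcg

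The Mt1 window holds 3 matches, all on the gene's strand and close to the start, beginning at -23, 2 and 20 bases from the start used (position 0). For Mt1 that start is not the first base of the gene's span, so its count and positions hold for this window only. The Mt2 window holds 4, beginning at -223 and -128 on the gene's strand and at -50 and 4 on the other strand. The Mt3 window holds 1, at 27 bases past the start, and so does that of Mt4, at -91 on the other strand. Of 32851 promoter windows of the same length in the table (27025 genes), 25.7% hold at least 1 match, 1.97% at least 3 and 0.517% at least 4. A match is a run of letters, and whether a factor binds there was not measured.

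**Figure D1:**
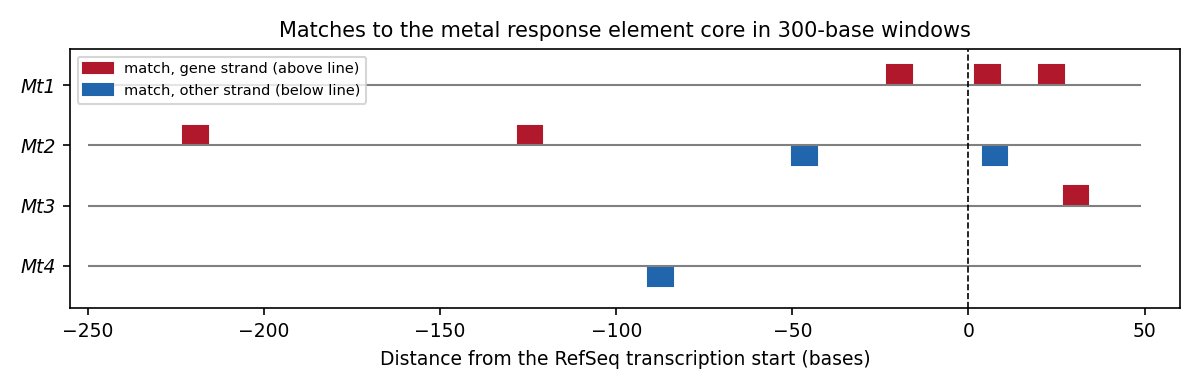
Positions of matches to the metal response element core in the 300-base promoter windows of Mt1, Mt2, Mt3 and Mt4, in bases from the RefSeq start (dashed line). For Mt1 the start used lies inside the span of the gene. Red blocks above a line are on the gene's strand, blue blocks below it on the other. Mt1 has 3 matches and Mt2 4, against 1 each in Mt3 and Mt4.

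The values are array signals in linear units, scaled by the authors to a common mean (1500.2 to 1500.77 over the arrays, after trimming 2% of values from both ends). Signals of different probe sets are not comparable as amounts of RNA, so each gene is compared only with itself. Log2 differences were fitted on log2 of the signal plus 52.0, and errors of differences are SE. A probe set passed the filter on low signal when it reached its array's median in at least 3 of 15 arrays; the median signal of all values on this chip was 555. All 3 genes passed, each through 1 probe set, and the other Mt1 probe set did not.

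Mt3 differed most between the conditions. Its signal was 7186, 12523, 8374, 5933, 6388 and 9664 in the 6 EGF samples, 633, 607 and 1465 in the 3 samples with PDGF-AA and NT-3, and 453, 674, 1032, 858, 549 and 739 in the 6 PDGF-AA samples. Every EGF sample lay above every sample of the other conditions. The means were 8345 ± 2457 with EGF (SD, n = 6), 902 ± 488 with NT-3 (n = 3) and 717 ± 210 with PDGF-AA (n = 6). The log2 difference of EGF minus PDGF-AA was 3.45 ± 0.25, a 10.9-fold higher signal and the 15th highest of the 13882 genes. That of EGF minus PDGF-AA with NT-3 was 3.20 ± 0.30, or 9.21-fold. With PDGF-AA the Mt3 probe set was near the middle of the array: it reached the array's median in 4 of 6 samples, and in 3 of 3 with NT-3.

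Mt2, one of the metal-inducible members, was also higher with EGF, by less than Mt3. Its signal was 7911, 7806, 5779, 3787, 9555 and 6273 in EGF samples, 2368, 1830 and 4338 in the samples with NT-3, and 2459, 2588, 2409, 1735, 1608 and 2224 in PDGF-AA samples. All EGF samples lay above all PDGF-AA samples, but replicate 3 with NT-3, at 4338, lay above EGF replicate 4, at 3787. The means were 6852 ± 2011 with EGF (SD, n = 6), 2845 ± 1320 with NT-3 (n = 3) and 2170 ± 406 with PDGF-AA (n = 6). EGF minus PDGF-AA was 1.60 ± 0.23 on the log2 scale (3.03-fold, the 158th highest difference of all genes), and EGF minus PDGF-AA with NT-3 was 1.29 ± 0.28 (2.44-fold).

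Mt1, the other metal-inducible member, varied most of the 3 genes among the EGF samples and among the PDGF-AA samples. Its signal was 22963, 12034, 11859, 2348, 26138 and 20086 in EGF samples, 14733, 7739 and 9860 with NT-3, and 7884, 5891, 4490, 2659, 8788 and 7000 in PDGF-AA samples. Of the EGF samples 5 of 6 lay above all PDGF-AA samples, and replicate 4 lay below all of them. The means were 15905 ± 8800 with EGF (SD, n = 6), 10777 ± 3586 with NT-3 (n = 3) and 6119 ± 2267 with PDGF-AA (n = 6). EGF minus PDGF-AA was 1.14 ± 0.46 (2.21-fold, the 343rd highest difference), and 1.62 without EGF replicate 4. EGF minus PDGF-AA with NT-3 was 0.28 ± 0.56, smaller than its SE, and 0.76 without EGF replicate 4.

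**Figure D2:**
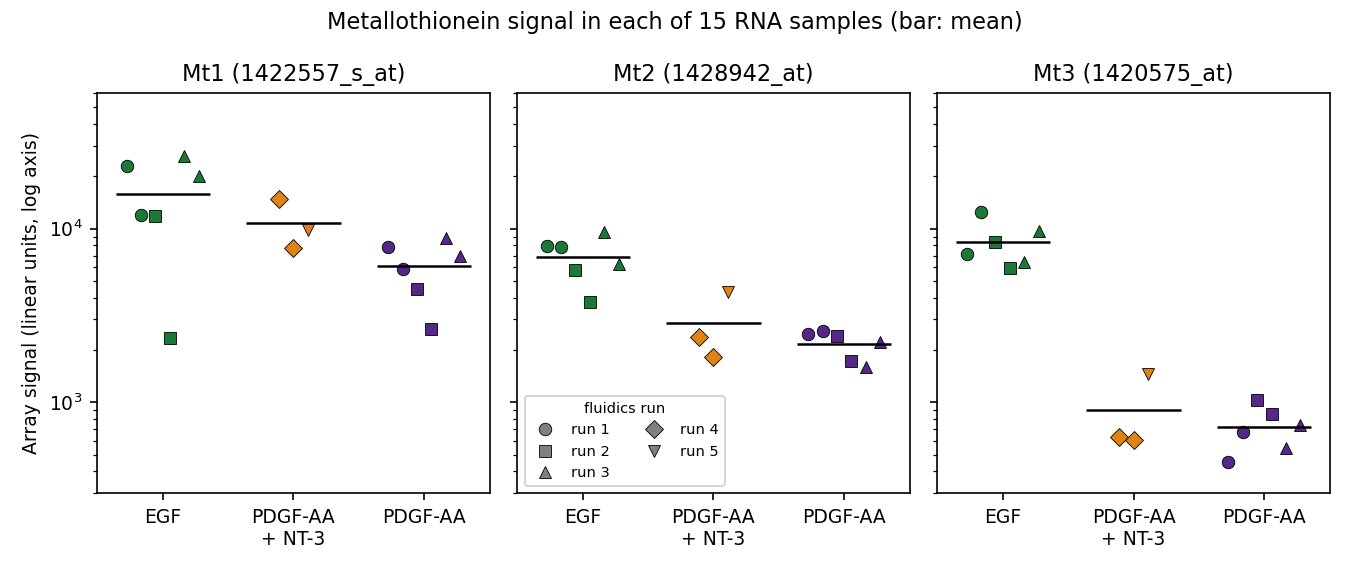
Array signal (linear units, log axis) of Mt1, Mt2 and Mt3 in each RNA sample with EGF, PDGF-AA and NT-3, or PDGF-AA, with symbols for the fluidics run and a bar at the mean of each condition. Mt3 separates EGF (5933 to 12523) from both other conditions, Mt2 separates EGF from PDGF-AA, and the Mt1 ranges overlap through 1 EGF sample at 2348.

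Samples without overlap, EGF above PDGF-AA, were thus found for 2 of the 3 genes (Mt2 and Mt3); 4.50% of all genes had such a separation. Between EGF and PDGF-AA with NT-3 it was found for 1 of 3 (Mt3), against 12.5% of all genes (3 samples on the side with NT-3). Since the genes were chosen with these differences known, the counts describe the choice. The order of the means was the same for the 3 genes, EGF first, PDGF-AA with NT-3 next and PDGF-AA last, but the last 2 overlapped for each gene, and for Mt1 all 3 conditions overlapped.

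In none of the 3 genes did the samples with PDGF-AA and NT-3 stand clear of the PDGF-AA samples. PDGF-AA with NT-3 minus PDGF-AA was 0.86 ± 0.56 for Mt1, 0.31 ± 0.28 for Mt2 and 0.24 ± 0.30 for Mt3 on the log2 scale. For Mt1, 2 of 3 samples with NT-3 lay above all PDGF-AA samples, and for Mt2 and Mt3 only replicate 3 did. Without that replicate the difference turned to -0.04 for Mt2 and to -0.15 for Mt3. Of all genes, 8.28% had every sample with NT-3 above every PDGF-AA sample, and 0 of the 3 metallothioneins did. The median of all genes in this comparison was -0.13, and that of EGF minus PDGF-AA with NT-3 was 0.11. With each array centred on its median instead, the differences with NT-3 were 0.99, 0.44 and 0.37 for Mt1, Mt2 and Mt3. The 3 comparisons share samples and are not independent of each other. The arrays with NT-3 shared no fluidics run with the others, so run and condition cannot be told apart for them. The labels also give RNA at 192, 287 and 171 ng/ul for replicates 1, 2 and 3 with NT-3, and at 100 ng/ul for all other samples. That difference cannot be told apart from the condition either.

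The other Mt1 probe set, 1451612_at, was dim. It had signals of 59.1 to 378 with EGF, 61.3 to 769 with NT-3 and 85.0 to 487 with PDGF-AA, and it reached its array's median on 1 of 15 arrays. Its log2 differences were 0.10 ± 0.51 for EGF minus PDGF-AA, 0.44 ± 0.62 for PDGF-AA with NT-3 minus PDGF-AA and -0.34 ± 0.62 for EGF minus PDGF-AA with NT-3. The 2 probe sets named Mt1 thus differ in size, and in sign for the last of these. The suffix _s_at of the bright one marks probes that can match several transcripts, and signal from related transcripts cannot be separated in it. Mt4, the metallothionein of stratified epithelia, lies outside the family as chosen here; its probe set had signals of 39.9 to 391 with EGF, 30.3 to 105 with NT-3 and 23.4 to 370 with PDGF-AA, below the array's median on all 15 arrays.

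**Figure D3:**
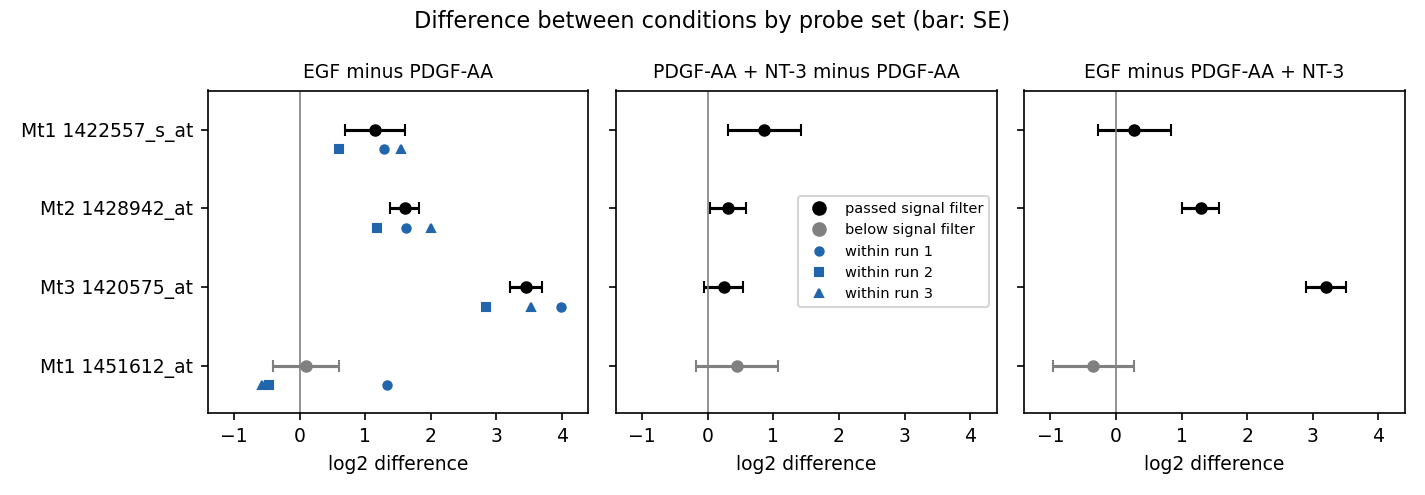
Log2 difference (point) and SE (bar) of each Mt1, Mt2 and Mt3 probe set for 3 pairs of conditions, with the EGF minus PDGF-AA value within each fluidics run below the point (blue). Mt3 stands at 3.45 and 3.20 where EGF is compared, and all 4 probe sets lie within 0.86 of zero for PDGF-AA with NT-3 minus PDGF-AA.

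EGF and PDGF-AA arrays fell into 3 fluidics runs (arrays whose deposited settings give the same fluidics station, protocol and part of a day), each with 2 samples of both conditions, so the difference could be read within a run. For Mt3 it was 3.98, 2.84 and 3.52 in runs 1, 2 and 3, for Mt2 1.62, 1.17 and 2.00, and for Mt1 1.28, 0.61 and 1.54. The direction was the same in every run for the 3 genes, and each value was lowest in run 2. In run 2 the 2 conditions overlapped for Mt1. The 2 lowest Mt1 signals of either condition came from run 2, 2348 and 11859 with EGF and 2659 and 4490 with PDGF-AA. For Mt2 this held with EGF (3787 and 5779). For Mt3 the 2 highest PDGF-AA samples came from run 2 (1032 and 858), the opposite side from Mt1. Since each run holds 2 samples of both conditions, a block for the run cannot change the fitted differences (1.14, 1.60 and 3.45 for Mt1, Mt2 and Mt3).

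**Figure D4:**
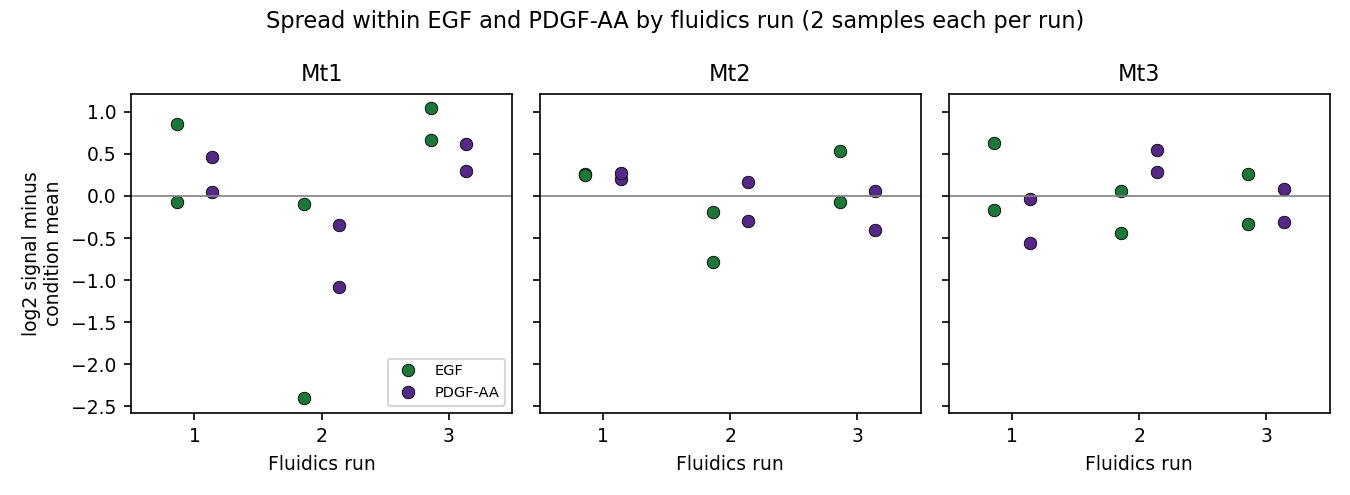
Log2 signal minus the mean of its condition (vertical axis) for Mt1, Mt2 and Mt3 in EGF (green) and PDGF-AA (purple) samples, by fluidics run. All 4 samples of run 2 lie below their condition's mean for Mt1, and the lowest point is EGF replicate 4, at -2.40.

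How far the members rise and fall together among samples of 1 condition does not enter the choice of the family, and it was tested by exact permutation (two-sided, 6 relations, 6 samples each). Among EGF samples Mt1 and Mt2 had r = 0.894 (exact permutation p = 0.0181, adjusted 0.108) and rho = 0.943 (exact p = 0.0167, adjusted 0.10). Without the 2 samples farthest from the Mt1 median r was 0.282. Leaving those out narrows the range of Mt1, which can lower r by itself, so this does not show what the relation rests on. The relation did not pass the correction. Among PDGF-AA samples the same pair had r = 0.152 (exact permutation p = 0.797, adjusted 0.957), with rho = -0.143 (exact p = 0.803, adjusted 1), and r = -0.773 without the 2 farthest samples, of the other sign. Mt1 and Mt3 had r = -0.737 among PDGF-AA samples (exact permutation p = 0.0944, adjusted 0.283), with rho = -0.829 (exact p = 0.0583, adjusted 0.175), and r = -0.639 without the 2 farthest samples. With EGF they had r = 0.271 (exact permutation p = 0.603, adjusted 0.904) and rho = 0.0286 (exact p = 1, adjusted 1), and r = -0.567 without the 2 farthest samples, again of the other sign. Mt2 and Mt3 had r = 0.271 with EGF (exact permutation p = 0.599, adjusted 0.904), with rho = 0.0857 (exact p = 0.919, adjusted 1), and r = 0.146 without the 2 farthest samples. With PDGF-AA they had r = 0.0264 (exact permutation p = 0.963, adjusted 0.963) and rho = -0.143 (exact p = 0.803, adjusted 1), and r = -0.248 without the 2 farthest samples. None of the 6 relations passed the correction. The permutation moved samples freely between fluidics runs, so a shift of a whole run can enter these p-values. Runs hold 2 samples of a condition, too few for a correlation. Within those 6 pairs of run mates, Mt1 and Mt2 moved in the same direction in 4 of 6, Mt2 and Mt3 in 4 of 6 and Mt1 and Mt3 in 2 of 6.

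Over all 15 samples, which share the split into conditions, Mt2 and Mt3 had a correlation of 0.907, Mt1 and Mt2 of 0.646 and Mt1 and Mt3 of 0.416. With the mean of each condition subtracted, these were 0.458, 0.588 and -0.06. Mt3 was the 18th most correlated gene with Mt2, and Mt2 was the 136th with Mt1. The genes most like Mt3 over the 15 samples were Pla2g7 (0.976), Pbxip1 (0.974), Mlc1 (0.972), a membrane protein of astrocytes, Id3 (0.970) and Ctsc (0.966). For Mt2 they were Mthfd1 (0.933), Htra1 (0.930), Rab31 (0.927), Rgs20 (0.927) and Tmem51 (0.926). For Mt1 they were Desi2 (0.849), Camkk2 (0.840), Ola1 (0.835), Rbm12b1 (0.831) and Ndufs8 (0.829). After subtraction of condition means, the nearest were Rgs20 (0.922), Mrpl52 (0.905) and Rpl27 (0.905) for Mt1, A630026N12Rik (0.914), Alyref (0.897) and Serpinb6a (0.887) for Mt2, and Snx5 (0.855), Gstp1 (0.840) and Hnrnpab (0.824) for Mt3. The 3 members thus shared no gene among their nearest, apart from Rgs20 in the lists of Mt1 and Mt2. These are descriptions over the samples in which the difference between conditions was seen.

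Markers of astrocytes and radial glia also differed between the conditions. Of 14 such markers, 8 were higher and 1 lower with EGF than with PDGF-AA, where 6.50% of all genes were higher and 6.52% lower (limma, adjusted p under 0.05), with a median difference of 1.06 against -0.04 over all genes. Gja1, the astrocyte connexin, rose by 4.28 ± 0.28 (adjusted p = 2.4e-08), while Gfap, the astrocyte filament protein, was at 0.44 ± 0.55 (adjusted p = 0.715). The summed signal of the 14 markers was 103617 to 154793 with EGF, 97013 to 126629 with NT-3 and 62707 to 86244 with PDGF-AA. The largest part was Fabp7, with means of 69942.5 with EGF, 86342.8 with NT-3 and 53074.7 with PDGF-AA. Fabp7 was not called for EGF against either other condition. The sums mix it with the other markers and do not show which of them differed. Each sum adds probe sets whose signals are not on a common scale of RNA amount, so it is compared only with itself between conditions. Of the 14 markers, 6 were higher and 1 lower with EGF than with PDGF-AA and NT-3 (median 1.26), where 14.1% of all genes were higher and 8.35% lower. With NT-3 relative to PDGF-AA, 4 were higher and 1 lower (median 0.24), where 7.43% of all genes were higher and 13.8% lower. Of 8 oligodendrocyte progenitor markers, 0 were higher and 6 lower with EGF than with PDGF-AA. Against PDGF-AA and NT-3, 0 were higher and 7 lower with EGF, and 4 were higher and 1 lower with NT-3 relative to PDGF-AA. Their summed signal was 59608 to 80794 with EGF, 163334 to 192985 with NT-3 and 109834 to 138082 with PDGF-AA. Olig1 was the largest part of it, with means of 42886.6 with EGF, 104349 with NT-3 and 60701.6 with PDGF-AA. Of 8 neuron markers, 0 were higher and 5 lower with EGF than with PDGF-AA. Against PDGF-AA and NT-3, 0 were higher and 1 lower with EGF, and 0 were higher and 4 lower with NT-3 relative to PDGF-AA. The sums of the neuron markers were 11015 to 23081 with EGF, 13394 to 25775 with NT-3 and 22938 to 40809 with PDGF-AA. Of 23 markers of microglia, endothelium, pericytes and meninges, and choroid plexus, 10 passed the filter. Of these, 0 were called between EGF and PDGF-AA, 5 were lower and 0 higher with NT-3 than with PDGF-AA, and 5 were higher and 0 lower with EGF than with PDGF-AA and NT-3. The part of cell makeup in the metallothionein values was not tested, and in RNA from whole cultures fewer cells of a type and less RNA per cell cannot be told apart. RNA quality was read from the log2 ratio of 3' to 5' control probe sets. On the chip that carries the metallothioneins it was 2.42 to 3.42 with EGF, 3.21 to 3.70 with NT-3 and 2.58 to 3.27 with PDGF-AA for Actb, and 3.62 to 4.01 with EGF, 3.52 to 4.38 with NT-3 and 3.65 to 4.12 with PDGF-AA for Gapdh. On the second chip it was 2.43 to 3.14 with EGF, 3.18 to 3.84 with NT-3 and 2.89 to 3.40 with PDGF-AA for Actb, and 3.47 to 3.81 with EGF, 4.10 to 4.20 with NT-3 and 3.28 to 3.97 with PDGF-AA for Gapdh, where the samples with NT-3 lay above all others. Its part in the values with NT-3 was not tested.

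Zinc handling genes are the pathway nearest to the metallothioneins. Of 25 genes, zinc transporters and Mtf1, 22 passed the filter, and with EGF relative to PDGF-AA 1 was higher and 1 lower, where 6.50% of all genes were higher and 6.52% lower, with a median of 0.04 against -0.04 over all genes. Slc39a12, a zinc importer of the plasma membrane known from brain, rose by 2.46 ± 0.44 (adjusted p = 0.000856; 2219 ± 417 with EGF, 313 ± 294 with NT-3 and 414 ± 371 with PDGF-AA), and its 1 other probe set, which was dim, was at 0.08. Slc39a6, another zinc importer, fell by 0.59 on the log2 scale (SE 0.10, adjusted p = 0.000631), with other probe sets between -0.52 and 0.16. Mtf1, the zinc-sensing factor of the metallothionein promoters, was at 0.02 ± 0.19 (adjusted p = 0.975), and Slc30a1, a zinc exporter that Mtf1 is also known to induce, at 0.32 ± 0.45 (adjusted p = 0.742).

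With NT-3 relative to PDGF-AA, where 7.43% of all genes were higher and 13.8% lower, 2 zinc genes were higher and 3 lower (median -0.20). Slc30a3, the zinc transporter of synaptic vesicles, fell by 1.98 on the log2 scale (SE 0.42, adjusted p = 0.00347), and Slc39a1 rose by 0.94 ± 0.24 (adjusted p = 0.0108; 0.79 and adjusted p = 0.0534 without NT-3 replicate 2). With EGF relative to PDGF-AA with NT-3, where 14.1% of all genes were higher and 8.35% lower, 6 were higher and 2 lower (median 0.27), and Slc39a12 again had the largest difference of the 22 (2.66 ± 0.54, adjusted p = 0.00181). Slc39a12 was thus higher with EGF than in both other conditions, without overlap between samples. Of all genes, 4.50% had such a separation of EGF from PDGF-AA, and 12.5% from PDGF-AA with NT-3. Its means of 313 with NT-3 and 414 with PDGF-AA lay under the second chip's median of 866, so the size of its differences rests on dim signals.

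**Figure D5:**
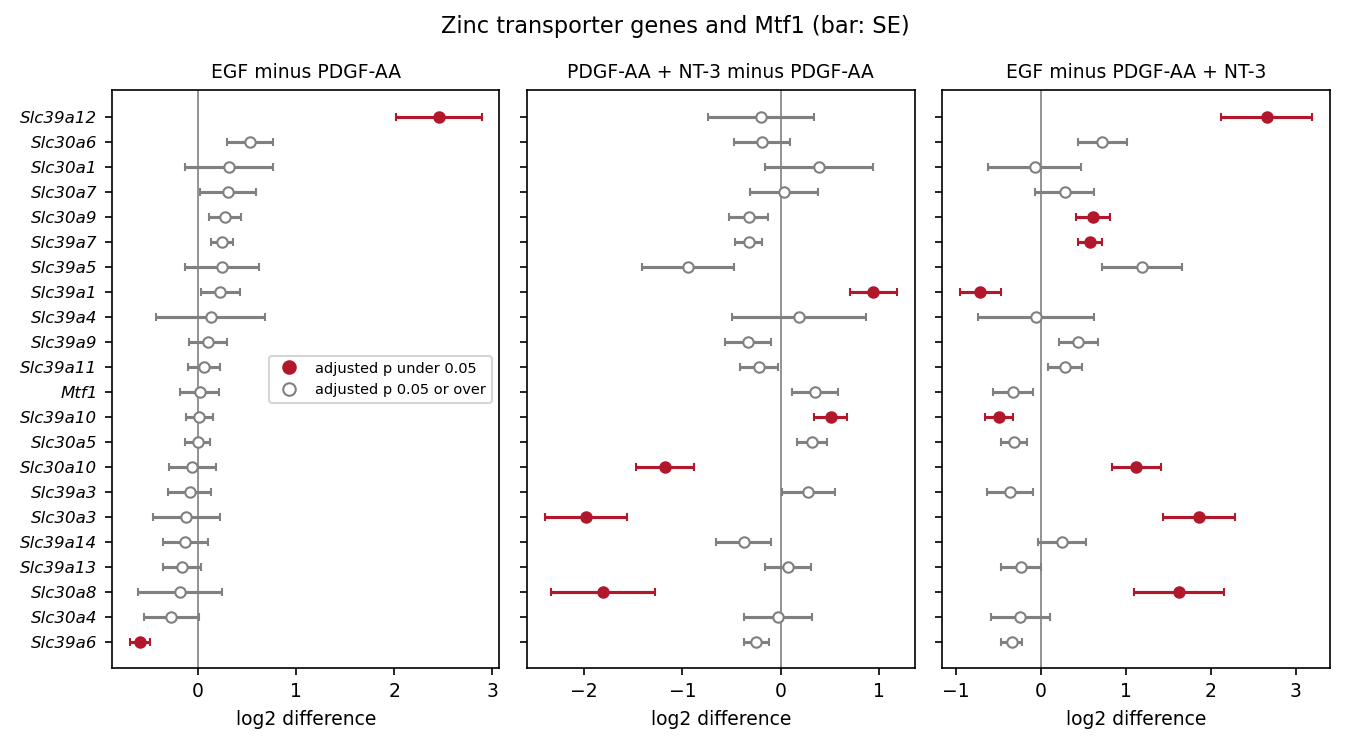
Log2 difference (point) and SE (bar) of 21 zinc transporter genes and Mtf1 for 3 pairs of conditions, filled where the limma adjusted p was under 0.05. Slc39a12 stands at 2.46 and 2.66 where EGF is compared, and Mtf1 lies near 0 in the first panel (0.02).

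Copper handling genes, the other metal pathway, had 14 of 15 genes tested. With EGF relative to PDGF-AA 3 were higher and 0 lower (median 0.04), where 6.50% of all genes were higher and 6.52% lower. Those 3, Sco1 (0.72 ± 0.21), Cox17 (0.53 ± 0.15) and Cutc (0.84 ± 0.27), had adjusted p of 0.028, 0.0285 and 0.0499, which rose above 0.05 under several alternatives. With NT-3 relative to PDGF-AA 2 were higher and 2 lower (median 0.30), where 7.43% of all genes were higher and 13.8% lower. With EGF relative to PDGF-AA with NT-3 2 were higher and 0 lower (median 0.18), where 14.1% were higher and 8.35% lower.

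Oxidative stress, also known to induce Mt1 and Mt2, was represented by 16 tested genes. With EGF relative to PDGF-AA 7 of these were higher and 0 lower (median 0.51), where 6.50% of all genes were higher and 6.52% lower. Relative to PDGF-AA with NT-3, 7 were higher and 0 lower with EGF (median 0.74), where 14.1% of all genes were higher and 8.35% lower. With NT-3 relative to PDGF-AA 2 were higher and 2 lower (median -0.15), where 7.43% were higher and 13.8% lower. Nfe2l2, the transcription factor Nrf2, rose by 1.99 ± 0.19 with EGF relative to PDGF-AA (adjusted p = 1.79e-06; 2574 ± 341 with EGF, 599 ± 147 with NT-3 and 616 ± 134 with PDGF-AA). The glutathione transferases Gsta4 (3.39 ± 0.36, adjusted p = 4.35e-06) and Gstm1 (1.72 ± 0.18, adjusted p = 4.46e-06) rose in the same comparison, and so did thioredoxin, Txn1 (1.62 ± 0.12, adjusted p = 8.01e-08). Gsta4 averaged 2213 with EGF, 447 with NT-3 and 165 with PDGF-AA. The last 2 lie under the chip's median of 555, so the size of its difference rests on dim signals. Txn1 also rose with NT-3 relative to PDGF-AA (1.54 ± 0.15, adjusted p = 1.09e-05), where Nfe2l2 was at -0.04 ± 0.24 (adjusted p = 0.931). Besides the 7 higher genes, others of the list were not called with EGF relative to PDGF-AA. Among them were Hmox1 (1.05 ± 0.42, limma adjusted p = 0.128), Srxn1 (-0.06 ± 0.34, adjusted p = 0.947) and Txnrd1 (-0.02 ± 0.11, adjusted p = 0.957).

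Glucocorticoid response genes had 11 of 13 tested, and the Stat3 pathway 12 of 14. Over all genes, 6.50% were higher and 6.52% lower with EGF relative to PDGF-AA, 7.43% and 13.8% with NT-3 relative to PDGF-AA, and 14.1% and 8.35% with EGF relative to PDGF-AA with NT-3. With EGF relative to PDGF-AA 1 glucocorticoid response gene was higher and 0 lower (median -0.30): Glul, the glutamine synthetase of astrocytes, rose by 0.93 ± 0.19 (adjusted p = 0.00223). With NT-3 relative to PDGF-AA 0 were higher and 3 lower (median -0.54), and with EGF relative to PDGF-AA with NT-3 4 were higher and 0 lower (median 0.50). Klf9, a glucocorticoid-induced transcription factor, fell by 2.20 on the log2 scale with NT-3 relative to PDGF-AA (SE 0.25, adjusted p = 2.91e-05). Of the Stat3 pathway genes, 2 were higher and 1 lower with EGF relative to PDGF-AA (median -0.02), 2 higher and 1 lower with NT-3 relative to PDGF-AA (median 0.20), and 2 higher and 2 lower with EGF relative to PDGF-AA with NT-3 (median -0.07). Cebpd, a transcription factor downstream of Stat3, rose by 2.40 ± 0.40 with EGF relative to PDGF-AA (adjusted p = 0.000426), although its other probe set, of similar brightness, was at 0.33. The Cebpd probe set in the fit averaged 1260 with EGF and 213 in both other conditions, where it was dim (chip median 555). Stat3 itself fell by 0.62 on the log2 scale (SE 0.14, adjusted p = 0.00669), a call lost with the mean of its probe sets (-0.47, adjusted p = 0.111).

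Of the 5 nearest genes on each side of the metallothionein cluster, 7 of 10 were tested, and 0 were called higher with EGF than with PDGF-AA. Over all genes, 6.50% were higher and 6.52% lower in this comparison, and 7 genes are too few to set a count apart from these shares. Gnao1, on the side of Mt4, was lower with EGF than with PDGF-AA, by -0.74 ± 0.23 (adjusted p = 0.0391), and the other 6 did not pass the test. Among these Nup93, the nearest on the side of Mt1, was at 0.37 ± 0.14 (adjusted p = 0.095), and Ogfod1, on the side of Mt4, at 0.90 ± 0.48 (adjusted p = 0.278). Nudt21 rose with NT-3 relative to PDGF-AA (0.80 ± 0.14, adjusted p = 0.000791) and was lower with EGF than with NT-3 (-0.69 ± 0.14, adjusted p = 0.0014).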

How the data were processed

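RNA of 15 samples was hybridised to 2 Affymetrix chips each (30 arrays). Each deposited value is the linear intensity of a probe set, which the authors made with MAS5 (version not stated), per the submitters' processing notes. The authors' scaling was kept. Scanner and fluidics settings that the authors deposited beside the signals, in other units, were read only to find arrays of a common run.

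Probe sets with 1 symbol (35041) were filtered on signal and reduced to 1 per gene, the first chip first and then the highest mean log2 signal, which left 13882 genes. On log2 of signal plus the chip's 10th percentile (52.0 and 115), all 15 samples were fitted together with limma 3.58.1 in R 4.3.3 (lmFit, then eBayes with a trend; 12 residual degrees of freedom), files being read with the package data.table (version 1.17.8). Benjamini-Hochberg adjustment ran over the 13882 genes, with a threshold of 0.05. Samples were not paired. The fit was tested on simulated data. The number of arrays limits the precision.

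Members and gene lists were chosen with earlier results of these data known. Named genes are the members, Mt4, up to 4 called genes per list and comparison by smallest adjusted p with both directions, and the 5 nearest genes on each side of the cluster. The 5 genes (3 after subtraction of condition means) most correlated with each member are also named. Markers, Mtf1, Slc30a1, Hmox1, Srxn1, Txnrd1 and the values of a named gene in another comparison were added after their values were seen. Neighbours and promoters are from RefSeq (GRCm38.p6), where all 4 metallothioneins were found by symbol.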

Additional observations from a re-analysis of the deposited data

Results flagged for a closer look

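Among groups of 6 samples of Mt1, Mt2, Mt3 and the named list genes, a sample that stood far from the others of its condition on the log2 scale was found in 6 of 72 groups tested, and chance alone flags about 1 in 20. Mt1 in EGF replicate 4 (signal 2348) lay apart from the next sample by 0.67 of the range of its condition on that scale, but by 0.40 of the range of the linear signals, where it would not have stood out by this measure. Slc39a1 in the same sample, EGF replicate 4, lay apart by 0.759 of the range. The same ratio was 0.691 for Slc30a8 in EGF replicate 6 and 0.637 for Sco1 in EGF replicate 3. It was 0.781 for Jak2 in PDGF-AA replicate 5 and 0.653 for Gsr in PDGF-AA replicate 3.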

How the results depend on the processing

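Mt1, Mt2 and Mt3 kept the direction of EGF minus PDGF-AA under every alternative tried for them (other pseudocounts, filters, scalings, array weights, and each sample left out). Blocks for run or replicate number are balanced over these 2 conditions and cannot change this difference. The differences moved by more than the spread between replicates for Mt3 within fluidics runs 1 and 2 (3.98 and 2.84, against 3.45) and for the other Mt1 probe set (0.0985, an alternative added after the data were seen). Leaving out 1 sample at a time gave, for EGF minus PDGF-AA, PDGF-AA with NT-3 minus PDGF-AA and EGF minus PDGF-AA with NT-3 in that order, 0.93 to 1.62, 0.61 to 1.07 and 0.07 to 0.76 for Mt1, 1.49 to 1.76, -0.04 to 0.57 and 1.02 to 1.64 for Mt2, and 3.32 to 3.55, -0.15 to 0.45 and 2.99 to 3.60 for Mt3. Calls over all genes were 1516 to 1956, 2195 to 2958 and 2558 to 3114 with 1 sample left out, against 1807, 2943 and 3119 with all. Fits within runs 1, 2 and 3, with fewer samples, made 95, 100 and 295 calls for EGF minus PDGF-AA, and array weights made 1897 for PDGF-AA with NT-3 minus PDGF-AA. Deviations of same-numbered samples had low correlations (0.0165 to 0.11 over the 6 EGF and PDGF-AA pairs, -0.0352 to 0.0514 and -0.0215 to 0.0445 over the 3 pairs with NT-3). Samples of different number were not compared in this way, so whether the numbers pair samples was not settled. The fit with replicate number as a replicate block, for which only replicates 1 to 3 serve where NT-3 is compared, made 2039, 49 and 567 calls.

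In the same order of comparisons, leaving out 1 sample gave 2 to 2, 3 to 5 and 4 to 9 called zinc handling genes, 0 to 3, 1 to 5 and 1 to 3 copper handling genes, 6 to 7, 3 to 6 and 7 to 7 oxidative stress genes, 1 to 2, 3 to 4 and 3 to 4 glucocorticoid response genes, and 3 to 4, 2 to 3 and 3 to 4 Stat3 pathway genes. Within runs 1, 2 and 3, EGF minus PDGF-AA called 0, 1 and 0 zinc, 0, 0 and 0 copper, 3, 3 and 4 oxidative stress, 0, 0 and 0 glucocorticoid and 0, 0 and 1 Stat3 genes. With the replicate block it called 0 copper genes and 2 glucocorticoid genes. The block left 0 genes of the zinc, copper, glucocorticoid and Stat3 lists and 1 of oxidative stress for PDGF-AA with NT-3 minus PDGF-AA. It left 1 zinc, 0 copper, 3 oxidative stress, 2 glucocorticoid and 0 Stat3 genes for EGF minus PDGF-AA with NT-3. Median centring called 1 copper gene for EGF minus PDGF-AA and 5 zinc genes for EGF minus PDGF-AA with NT-3. Array weights called 3 zinc, 1 copper and 2 oxidative stress genes for PDGF-AA with NT-3 minus PDGF-AA, and 4 zinc genes and 1 copper gene for EGF minus PDGF-AA with NT-3. The mean of probe sets called 1 copper and 1 Stat3 gene for PDGF-AA with NT-3 minus PDGF-AA, and 0 copper and 2 Stat3 genes for EGF minus PDGF-AA with NT-3. A fit on the samples of just the 2 conditions in question called 2 copper genes and 1 oxidative stress gene for PDGF-AA with NT-3 minus PDGF-AA, 1 copper gene for EGF minus PDGF-AA with NT-3 and 2 glucocorticoid genes for EGF minus PDGF-AA, as many as with the run as a block or with no filter. The filter at the 75th percentile called 1 Stat3 gene for PDGF-AA with NT-3 minus PDGF-AA, and 2 Stat3 and 2 glucocorticoid genes for EGF minus PDGF-AA with NT-3. The cause was not tested for these counts.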
